A study of Homo sapiens with 12 samples.

Results

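Of 16591 genes measured in RWPE1 cells, 79 had a GFP-ERG effect at 72 h that differed from the effect at 48 h. These 79 genes were sorted into 28 whose effect was early and transient, 14 whose effect was late, 9 whose effect reversed, and 28 whose effect kept its sign but shrank (19 genes) or grew (9 genes). The largest early effects were on PI3, MT1F and CA2, the largest late ones on RGS4, TNFAIP6 and SERPINA3, and the largest reversal was that of CYP1A1. HBA1, CRP and HECW2 were raised at both times and less so at 72 h, whereas HEY1, SHISA2 and APOD were raised more at 72 h.

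RWPE1 is an immortalised, non-cancerous epithelial line from human prostate, grown here in a keratinocyte medium. The cells were transfected with GFP alone, the control, or with ERG fused to GFP, and total RNA was taken at 48 h or 72 h. Each of the 4 groups had 2 one-colour Illumina arrays. Transfection in duplicate is stated for the study, but not at which step a pair of arrays divides, so p-values measure the spread between these arrays, which may be technical. The labels used here give neither the promoter of the construct, nor the share of cells that took it up, nor any selection. In RNA from a whole culture, fewer cells carrying the construct and less RNA per cell cannot be told apart. VCaP arrays of the same series had no time course and were not used.

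ERG belongs to the ETS transcription factors and binds DNA at sites with the core GGAA. It is normally expressed in endothelial cells, and in many prostate cancers it is switched on in the epithelium by gene fusions such as TMPRSS2-ERG. A fused GFP lets transfected cells be seen, and GFP alone controls for the transfection and for the time in culture.

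The GFP-ERG effect is the mean log2 signal with GFP-ERG minus that with GFP at the same time. The difference is the effect at 72 h minus the effect at 48 h, so it is negative where the effect was more positive at 48 h. It was tested with limma on all 8 arrays, with Benjamini-Hochberg adjusted p-values over 16591 genes and a threshold of 0.05. Members are the genes past that threshold. An early and transient gene also passed the test of GFP-ERG against GFP at 48 h and not at 72 h, a late gene passed at 72 h and not at 48 h, and a reversed gene passed at both with opposite signs. Not passing at a time does not show that the effect there was 0. The tests at both times and the difference rest on the same arrays, so the class of a gene is a description and carries no test beyond that of the difference.

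Both arrays of each group gave much the same signals, with a correlation of 0.9979 to 0.9985 over genes and 0 or 1 gene that differed by more than 2-fold. Of 28 basal and squamous epithelial genes, 20 reached the median of all probes, 7.24, in some group. Among them KRT5 (13.31 to 13.91) and KRT14 (14.0 to 14.32) were high in all 4 groups, while KRT15 (7.18 to 7.5), IVL (7.0 to 7.11) and KRT1 (6.51 to 6.61) were not. Of 17 luminal and androgen receptor genes, 9 reached it, with KRT8 at 10.77 to 11.27 and KRT18 at 9.85 to 9.93, but not KLK3 (6.47 to 6.72) or TMPRSS2 (6.64 to 6.88). Of 26 endothelial genes, 11 reached it, with FLI1 at 8.88 to 9.05, LMO2 at 8.52 to 9.23 and ENG at 8.4 to 9.01, but not PECAM1, CDH5 or VWF (6.37 to 6.97 between them). Of 12 leukocyte markers, 2 reached it, CD68 (11.1 to 12.37) and CD14 (6.96 to 8.06), and PTPRC (6.89 to 6.98) did not. Of 11 fibroblast markers 4 reached it, as did 4 of 13 neuroendocrine markers.

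ERG had 2 probes, of which the one for transcript NM_004449 had group means of 6.91 to 6.94, with single arrays from 6.834 to 7.005. The NM_182918 probe read 6.30 and 6.43 with GFP and 7.33 and 7.29 with GFP-ERG at 48 h, then 6.36 and 6.25 with GFP and 6.93 and 6.94 with GFP-ERG at 72 h. All 4 GFP-ERG arrays lay above all 4 GFP arrays, whose levels are at the bottom of the scale, and both GFP-ERG arrays at 72 h lay below both at 48 h. From 48 h to 72 h it fell by 0.38 in GFP-ERG arrays (adjusted p = 0.000228 over all probes). Its effect was 0.95 at 48 h and 0.63 at 72 h, a difference of -0.32 (SE 0.09) that did not pass (adjusted p = 0.218 over all probes). The labels do not say whether this probe covers the introduced ERG.

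Between the times, 0.476% of all genes passed the test of the difference, 34 of them with a higher effect at 72 h (0.205%) and 45 with a lower one (0.271%). The median absolute difference of the 79 was 0.533 log2 units, and 4 genes, PI3, MT1F, CA2 and HEY1, differed by 1 log2 unit or more. All 79 kept the sign of their difference under each of the 14 alternative settings in which they were tested. These settings reuse the arrays on which the genes were chosen, so a kept sign adds little support. The number past the threshold was less steady. It fell to 32 without the second GFP array at 72 h, to 37 and 38 without the first or the second GFP array at 48 h, and to 46 without either GFP-ERG array at 72 h. It rose to 144 without the second GFP-ERG array at 48 h. With a background subtracted it was 25. The difference stayed past the threshold in every alternative for 23 of the 79 genes, and these are given array by array. IL7R, RCAN1, PYGB, SH2D3C, NOCT and IFNB1 are given so too, although each lost its call in at least 1 alternative.

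Far more genes passed at 1 time only than differed between the times. GFP-ERG against GFP was called for 1459 genes at 48 h (8.79%, with 4.86% higher and 3.93% lower) and for 1029 at 72 h (6.20%, with 3.19% higher and 3.01% lower), and 626 were called at both. The count at 48 h was 798 and 799 without the first or the second GFP array at that time. The count at 72 h was 532 without the second GFP array and 582 or 681 without the first or the second GFP-ERG array at that time. Of the 833 genes called at 48 h alone, the difference itself was called for 28, and of the 403 called at 72 h alone, for 14. The sample titles name no batch, so time in culture and a batch shared by the arrays of 1 time cannot be told apart. Many more genes differed between 48 h and 72 h, with 3820 changed in GFP arrays (23.0%) and 4276 in GFP-ERG arrays (25.8%). The former count was 2545 without the first GFP array at 48 h. For each gene the difference between the effects equals its change with time under GFP-ERG minus its change under GFP. The change with time was called under GFP-ERG alone for 31 of the 79 members, under GFP alone for 13, and under both for 35. Members were chosen by the difference of these changes, so a called change under at least 1 construct adds no support.

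**Figure D1:**
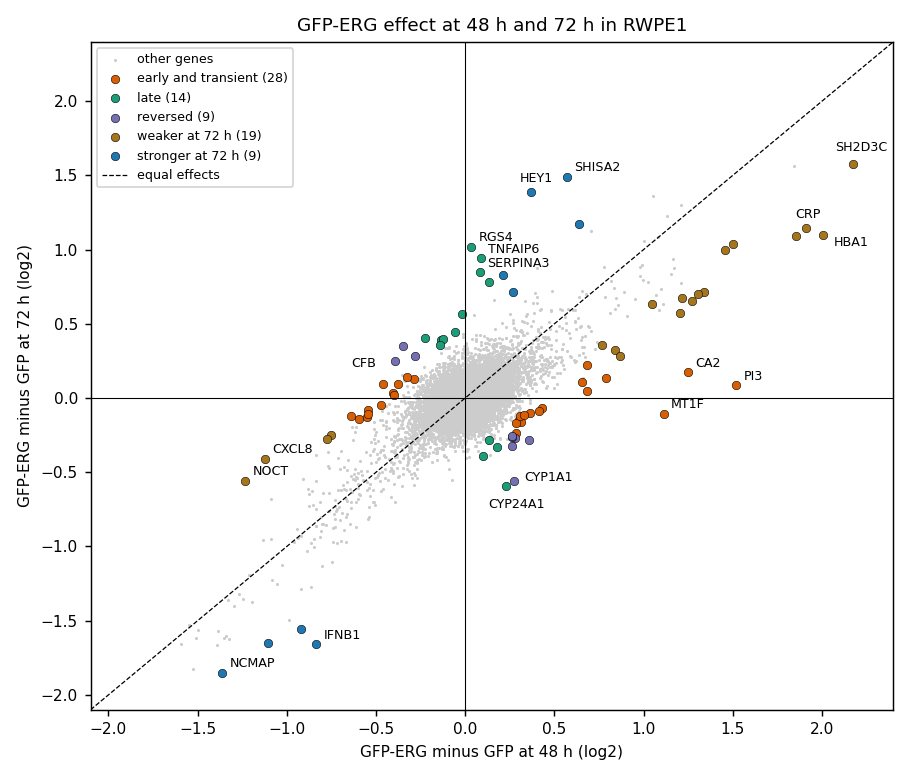
Effect of GFP-ERG (log2) at 48 h on the x axis and at 72 h on the y axis for 16591 genes, with the 79 genes past the test of the difference coloured by class and all others in grey. The dashed line marks equal effects, and early genes such as PI3 and MT1F lie along the x axis while late genes such as RGS4 lie along the y axis.

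Early and transient genes raised by GFP-ERG numbered 16, with a median effect of 0.42 at 48 h and -0.09 at 72 h. PI3 encodes elafin, a secreted inhibitor of neutrophil elastase made by epithelia. It read 12.20 and 12.37 with GFP and 13.70 and 13.91 with GFP-ERG at 48 h, then 14.69 and 14.60 with GFP and 14.76 and 14.71 with GFP-ERG at 72 h. The groups were fully apart at 48 h, and at 72 h all 4 arrays lay within a narrow band, with GFP-ERG slightly above. Its effect was 1.52 at 48 h and 0.09 at 72 h, a difference of -1.43 (SE 0.11, adjusted p = 1.89e-07). Signal rose by 2.36 with time under GFP and rose by 0.93 under GFP-ERG. The 72 h levels of PI3 lie near the top of the scale, whose highest value was 15.1, and how far this held back an effect there was not tested.

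MT1F and MT1M belong to the metallothioneins, small proteins that bind zinc and copper. MT1F read 11.21 and 11.22 with GFP and 12.33 and 12.32 with GFP-ERG at 48 h, then 14.16 and 14.15 with GFP and 14.05 and 14.05 with GFP-ERG at 72 h. GFP-ERG arrays were more than a log2 unit above GFP arrays at 48 h and slightly below them at 72 h, with no overlap at either time. The effect was 1.11 at 48 h and -0.11 at 72 h, of which the second did not pass (adjusted p = 0.398), and the difference was -1.22 (SE 0.09, adjusted p = 1.31e-07). Like those of PI3, the 72 h levels of MT1F lie toward the top of the scale, whose highest value was 15.1. How far this held back an effect there was not tested. MT1M averaged 7.63 in GFP and 8.06 in GFP-ERG arrays at 48 h, then 13.10 and 13.03 at 72 h. MT1M rose by 5.47 log2 units with time under GFP and by 4.97 under GFP-ERG. The MT1 genes are near-identical copies, so their probes may share signal.

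CA2 encodes a carbonic anhydrase, an enzyme that interconverts carbon dioxide and bicarbonate. It read 9.71 and 9.93 with GFP and 11.13 and 11.003 with GFP-ERG at 48 h, then 10.68 and 10.74 with GFP and 10.83 and 10.93 with GFP-ERG at 72 h. At 48 h GFP-ERG arrays stood well above GFP arrays, and at 72 h they stood just above them without overlap. The effect was 1.25 at 48 h and 0.17 at 72 h, a difference of -1.07 (SE 0.11, adjusted p = 7.73e-06). CA2 rose by 0.89 with time under GFP and had a change of -0.19 under GFP-ERG that did not pass. In PI3, MT1F and CA2 the GFP arrays rose more with time than the GFP-ERG arrays, which the plot of change with time shows as points to the right of its line.

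In other early genes the GFP-ERG arrays moved. IL7R, the interleukin-7 receptor alpha chain, read 8.16 and 8.25 with GFP and 9.002 and 8.77 with GFP-ERG at 48 h, then 8.23 and 8.12 with GFP and 8.20 and 8.25 with GFP-ERG at 72 h. GFP-ERG at 48 h stood alone above the other 3 groups, which overlapped. Its difference was -0.63 (SE 0.11, adjusted p = 0.00497), and it fell by 0.66 under GFP-ERG with no called change under GFP. RCAN1, an inhibitor of the phosphatase calcineurin, read 11.35 and 11.36 with GFP and 11.98 and 12.04 with GFP-ERG at 48 h, then 11.10 and 11.19 with GFP and 11.19 and 11.32 with GFP-ERG at 72 h. The GFP-ERG arrays at 48 h were again the highest, and at 72 h the constructs overlapped. Its difference was -0.55 (SE 0.09, adjusted p = 0.00605) at the brightest probe (NM_203417), and -0.27 at a dimmer probe (NM_203418), which did not pass. At that dimmer probe the effect was 0.61 at 48 h and still 0.33 at 72 h (adjusted p = 0.00496 over all probes in limma's test). The effect on RCAN1 was thus not transient there.

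LGALSL, a galectin-like protein, averaged 9.23 in GFP and 10.02 in GFP-ERG arrays at 48 h, then 9.41 and 9.54 at 72 h. PHACTR2, a regulator of phosphatase 1 and actin, averaged 10.85 in GFP and 11.13 in GFP-ERG arrays at 48 h, then 10.74 and 10.51 at 72 h. At 72 h its effect of -0.24 narrowly missed a call (adjusted p = 0.0557), so it stood close to the reversed genes. RPS6KA5, the kinase MSK1 downstream of MAPK signalling, averaged 7.69 in GFP and 8.11 in GFP-ERG arrays at 48 h, then 7.78 and 7.69 at 72 h at its brighter probe, while a dimmer one did not pass. SASH1, a scaffold protein, averaged 9.10 in GFP and 9.78 in GFP-ERG arrays at 48 h, then 9.18 and 9.40 at 72 h. Its effect of 0.22 at 72 h had an adjusted p of 0.0637, so it stood close to the genes with a weaker effect. TGFA, a ligand of the EGF receptor, averaged 9.85 in GFP and 10.18 in GFP-ERG arrays at 48 h, then 9.78 and 9.66 at 72 h. SH3D19, an adaptor protein, averaged 8.88 in GFP and 9.18 in GFP-ERG arrays at 48 h, then 8.96 and 8.83 at 72 h. SLC38A6, of a family of amino acid transporters, averaged 8.03 in GFP and 8.39 in GFP-ERG arrays at 48 h, then 8.17 and 8.07 at 72 h. These 7 genes had no called change with time under GFP and fell under GFP-ERG.

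KCNK12, a potassium channel subunit, averaged 6.73 in GFP and 7.04 in GFP-ERG arrays at 48 h, then 7.47 and 7.31 at 72 h. RRM2B, the p53-inducible subunit of ribonucleotide reductase, averaged 8.87 in GFP and 9.16 in GFP-ERG arrays at 48 h, then 9.55 and 9.38 at 72 h. CYBRD1, a ferric reductase, averaged 10.06 in GFP and 10.36 in GFP-ERG arrays at 48 h, then 10.42 and 10.28 at 72 h. In these 3 genes the GFP arrays rose with time and ended above the GFP-ERG arrays, by less than the test at 72 h needed.

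Early and transient genes lowered by GFP-ERG numbered 12, with a median effect of -0.47 at 48 h and -0.02 at 72 h. Their differences ran from 0.42 to 0.56, so they were smaller than those of the leading raised genes. CREB5, a bZIP factor of the CREB family, averaged 8.43 in GFP and 7.79 in GFP-ERG arrays at 48 h, then 7.70 and 7.58 at 72 h at its brightest probe, and 3 dimmer probes did not pass. HOXB9, a homeobox factor, averaged 8.47 in GFP and 7.93 in GFP-ERG arrays at 48 h, then 7.95 and 7.87 at 72 h. In both genes the GFP arrays came down to the level that GFP-ERG arrays had at 48 h. HLF, a bZIP factor of the PAR family, averaged 7.01 in GFP and 6.46 in GFP-ERG arrays at 48 h, then 6.59 and 6.47 at 72 h, and was the 1 member whose groups all lay below the median of all probes. CITED4, a transcriptional co-activator, averaged 10.67 in GFP and 10.34 in GFP-ERG arrays at 48 h, then 9.53 and 9.67 at 72 h. GABPB1, the partner subunit of the ETS factor GABPA, averaged 9.45 in GFP and 8.86 in GFP-ERG arrays at 48 h, then 9.21 and 9.06 at 72 h. In these 5 genes the GFP arrays fell with time.

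PSPH, the last enzyme of serine synthesis, averaged 9.89 in GFP and 9.48 in GFP-ERG arrays at 48 h, then 9.61 and 9.65 at 72 h. CHAC1, which degrades glutathione and is induced by ATF4, averaged 7.96 in GFP and 7.48 in GFP-ERG arrays at 48 h, then 7.21 and 7.16 at 72 h. PPP3CC, a catalytic subunit of calcineurin, averaged 10.15 in GFP and 9.61 in GFP-ERG arrays at 48 h, then 9.93 and 9.82 at 72 h. In these 3 genes too, GFP arrays fell with time. GFP-ERG arrays had no called change in PSPH, fell by 0.33 in CHAC1 and rose by 0.22 in PPP3CC. UTP14A, a factor of ribosomal RNA processing, averaged 9.56 in GFP and 9.11 in GFP-ERG arrays at 48 h, then 9.75 and 9.84 at 72 h. It had the largest difference of these 12 genes, 0.56 (SE 0.10, adjusted p = 0.00598), and it rose with time under GFP-ERG with no called change under GFP. VPS25, a subunit of the ESCRT-II sorting complex, averaged 10.03 in GFP and 9.63 in GFP-ERG arrays at 48 h, then 9.96 and 9.98 at 72 h. BNIP1, a SNARE protein, averaged 8.78 in GFP and 8.49 in GFP-ERG arrays at 48 h, then 8.48 and 8.61 at 72 h. SLC35F6, of a family of nucleotide sugar transporters, averaged 8.73 in GFP and 8.35 in GFP-ERG arrays at 48 h, then 8.55 and 8.64 at 72 h. Group SDs of the 28 early and transient genes were at most 0.20. Arrays of both constructs were apart at 48 h in all 28 and at 72 h in 18. The separation at 48 h adds no support, since the genes were chosen by the test on those arrays. In 16 of the 28 the effect at 72 h had the opposite sign without passing.

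The count of early and transient genes depended on single arrays. It was 60 without the second GFP-ERG array at 48 h and 12 without the first. It was 4 without the first GFP array at 48 h, 9 without the second, 9 without the second GFP array at 72 h, and 16 without either GFP-ERG array at 72 h. It was 22 when an unadjusted p of at least 0.05 was asked at 72 h. With a background subtracted it was 4. PI3, MT1F and CA2 were past the threshold in every alternative.

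**Figure D2:**
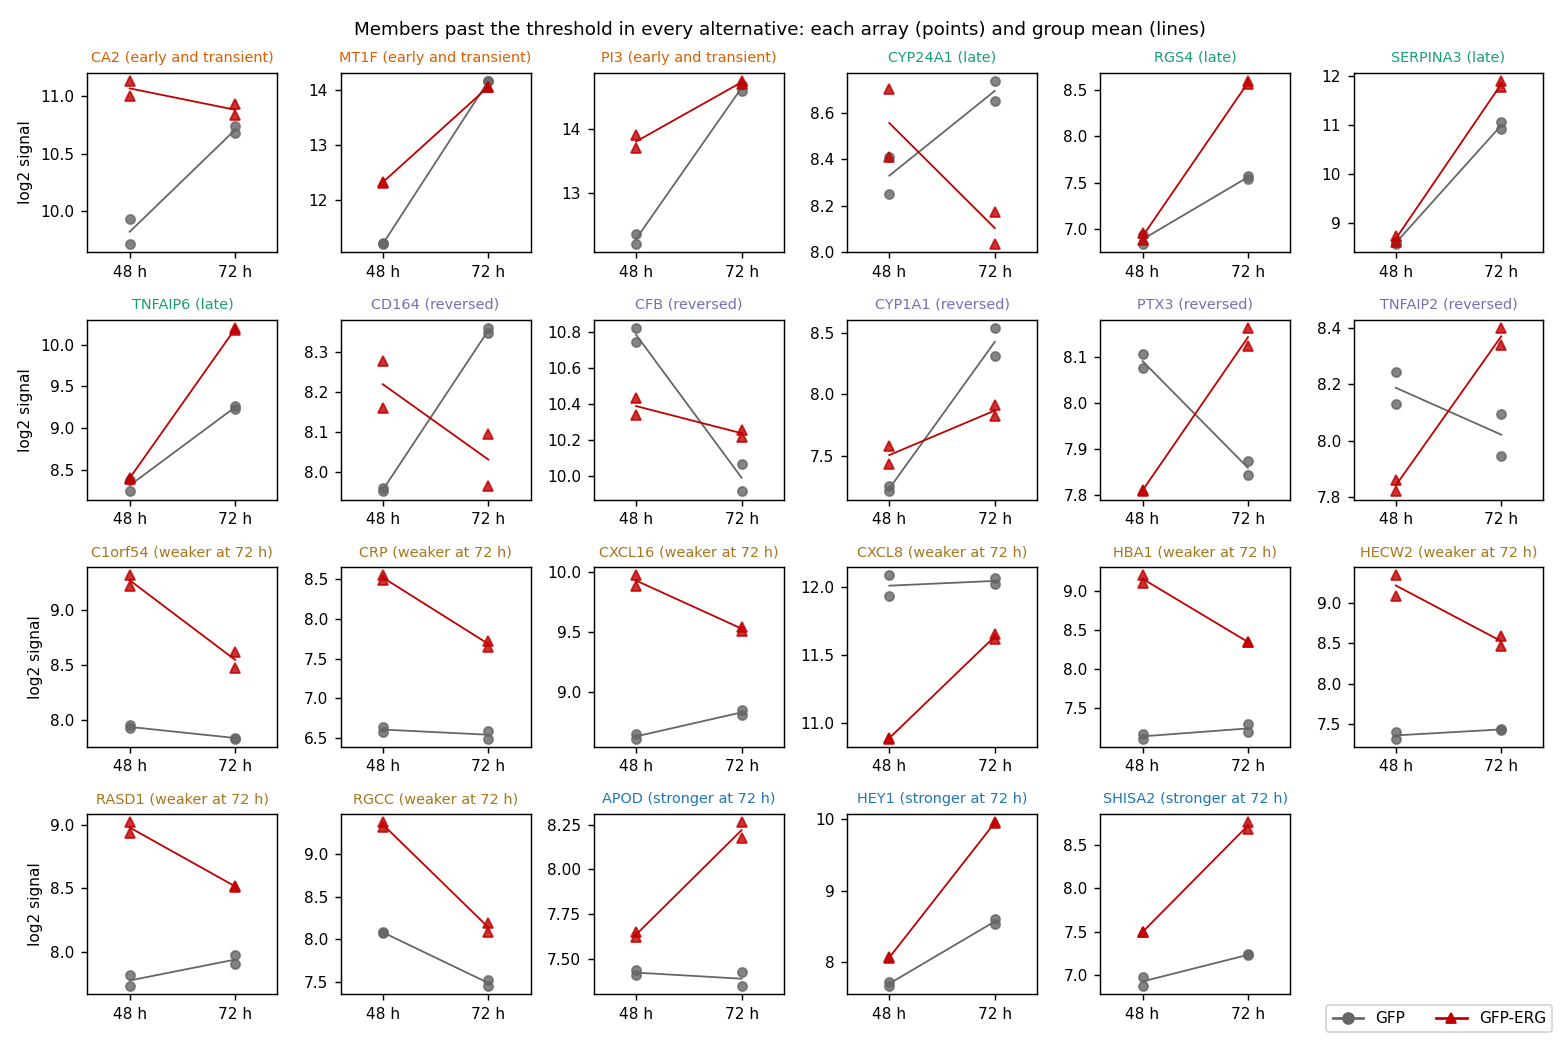
Log2 signal of each of the 8 arrays for the 23 genes whose difference was past the threshold in every alternative, with GFP and GFP-ERG arrays at 48 h and 72 h as points and the group means as lines. The y axis differs between panels, and the constructs overlap at 48 h for RGS4, SERPINA3 and CYP24A1.

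Late genes raised by GFP-ERG numbered 10, with a median effect of -0.04 at 48 h and 0.50 at 72 h. RGS4, which accelerates the GTPase of G protein alpha subunits, read 6.94 and 6.84 with GFP and 6.96 and 6.89 with GFP-ERG at 48 h, then 7.58 and 7.55 with GFP and 8.56 and 8.60 with GFP-ERG at 72 h. At 48 h the constructs overlapped, and at 72 h GFP-ERG arrays stood about a log2 unit higher. Its difference was 0.98 (SE 0.09, adjusted p = 3.93e-06). TNFAIP6, a hyaluronan-binding protein induced by inflammatory cytokines, read 8.24 and 8.38 with GFP and 8.41 and 8.39 with GFP-ERG at 48 h, then 9.24 and 9.27 with GFP and 10.20 and 10.18 with GFP-ERG at 72 h. GFP-ERG arrays lay barely above the GFP arrays at 48 h and well above them at 72 h, a difference of 0.85 (SE 0.09, adjusted p = 2.53e-05).

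SERPINA3, the protease inhibitor alpha-1-antichymotrypsin, read 8.55 and 8.61 with GFP and 8.60 and 8.73 with GFP-ERG at 48 h, then 11.06 and 10.92 with GFP and 11.77 and 11.91 with GFP-ERG at 72 h. The constructs overlapped at 48 h, and the arrays rose steeply with time under both, further under GFP-ERG. Its difference was 0.76 (SE 0.10, adjusted p = 0.000442), made of a rise of 2.41 under GFP and 3.17 under GFP-ERG. TCN1, a secreted vitamin B12 carrier, averaged 7.57 in GFP and 7.70 in GFP-ERG arrays at 48 h, then 8.86 and 9.64 at 72 h. S100P, a calcium-binding protein, averaged 9.06 in GFP and 9.01 in GFP-ERG arrays at 48 h, then 10.17 and 10.62 at 72 h. IGFBP5, a secreted binding protein of insulin-like growth factors, averaged 6.54 in GFP and 6.52 in GFP-ERG arrays at 48 h, then 6.95 and 7.51 at 72 h. In all of these 6 genes signal also rose with time under GFP, so that the late effect came on top of a change seen with GFP alone.

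CRYAB, a small heat shock protein, averaged 8.63 in GFP and 8.40 in GFP-ERG arrays at 48 h, then 9.35 and 9.75 at 72 h. S100A9, a subunit of calprotectin, averaged 9.24 in GFP and 9.12 in GFP-ERG arrays at 48 h, then 8.92 and 9.32 at 72 h. PYGB, a glycogen phosphorylase, read 10.66 and 10.69 with GFP and 10.53 and 10.56 with GFP-ERG at 48 h, then 10.65 and 10.57 with GFP and 10.95 and 11.05 with GFP-ERG at 72 h. TPM1, a tropomyosin of actin filaments, averaged 10.80 in GFP and 10.66 in GFP-ERG arrays at 48 h, then 10.99 and 11.35 at 72 h at its brighter probe, while a dimmer one did not pass. These 4 genes lay below GFP at 48 h without passing and above it at 72 h. S100A9 fell by 0.32 under GFP and rose by 0.20 under GFP-ERG, so in that gene the constructs moved in opposite directions.

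Late genes lowered by GFP-ERG numbered 4, with a median effect of 0.16 at 48 h and -0.36 at 72 h. CYP24A1, which breaks down active vitamin D, read 8.41 and 8.25 with GFP and 8.71 and 8.41 with GFP-ERG at 48 h, then 8.65 and 8.74 with GFP and 8.03 and 8.17 with GFP-ERG at 72 h. The arrays of the constructs overlapped at 48 h, and at 72 h both GFP-ERG arrays were well below GFP. Its difference was -0.82 (SE 0.12, adjusted p = 0.00131), with GFP arrays up by 0.37 and GFP-ERG arrays down, a change of -0.46. SLC30A1, a zinc exporter, averaged 9.18 in GFP and 9.28 in GFP-ERG arrays at 48 h, then 10.44 and 10.05 at 72 h. FAM200A averaged 11.82 in GFP and 11.99 in GFP-ERG arrays at 48 h, then 12.27 and 11.95 at 72 h. PI4K2B, a phosphatidylinositol kinase, averaged 10.03 in GFP and 10.17 in GFP-ERG arrays at 48 h, then 10.04 and 9.76 at 72 h. SLC30A1 rose by 1.26 with time under GFP and by 0.77 under GFP-ERG, while PI4K2B had no called change under GFP and fell by 0.41 under GFP-ERG.

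Group SDs of the 14 late genes were at most 0.23, and arrays of the constructs were apart at 72 h in all 14 and at 48 h in 9. The separation at 72 h adds no support, since the genes were chosen by the test on those arrays. In 10 of the 14 the effects at both times had opposite signs. The number of late genes was 34 without the second GFP-ERG array at 48 h and 31 without the first GFP array at 72 h. It was 6 without the second GFP array at 72 h, 9 without the second GFP array at 48 h or the first GFP-ERG array at 72 h, and 6 with a background subtracted. RGS4, TNFAIP6, SERPINA3 and CYP24A1 passed in every alternative.

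Reversed genes raised at 48 h and lowered at 72 h numbered 6, with effects of 0.26 to 0.36 at 48 h and -0.56 to -0.26 at 72 h. CYP1A1, a cytochrome P450 induced through the aryl hydrocarbon receptor, read 7.26 and 7.21 with GFP and 7.58 and 7.44 with GFP-ERG at 48 h, then 8.31 and 8.54 with GFP and 7.83 and 7.91 with GFP-ERG at 72 h. GFP-ERG arrays were above GFP at 48 h and below it at 72 h without overlap. Its effect was 0.27 at 48 h and -0.56 at 72 h, a difference of -0.83 (SE 0.11, adjusted p = 0.000333). CYP1A1 rose by 1.19 with time under GFP and by 0.36 under GFP-ERG. CD164, a sialomucin of cell adhesion, read 7.96 and 7.95 with GFP and 8.28 and 8.16 with GFP-ERG at 48 h, then 8.35 and 8.36 with GFP and 8.10 and 7.97 with GFP-ERG at 72 h. The groups crossed over without overlap, and the difference was -0.58 (SE 0.10, adjusted p = 0.00347).

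RPL27A, a ribosomal protein, averaged 9.05 in GFP and 9.41 in GFP-ERG arrays at 48 h, then 9.65 and 9.36 at 72 h. ACSL4, which activates arachidonic acid and other long-chain fatty acids, averaged 10.27 in GFP and 10.55 in GFP-ERG arrays at 48 h, then 10.57 and 10.30 at 72 h. RIN2, an exchange factor for RAB5, averaged 11.45 in GFP and 11.71 in GFP-ERG arrays at 48 h, then 12.06 and 11.79 at 72 h. Each of these 3 had effects of similar size in either direction. YAP1, the co-activator at the end of the Hippo pathway, averaged 11.38 in GFP and 11.65 in GFP-ERG arrays at 48 h, then 11.64 and 11.38 at 72 h. In all 6 genes GFP arrays rose with time, while GFP-ERG arrays rose less, stood still within the test, or fell. RPL27A was not on the list of ribosomal protein genes, of which 0 of 35 passed the difference, with a median difference of -0.003. Its group means of 9.05 to 9.65 lay far below the median levels of that list, 14.21 to 14.27 over the groups. Whether its probe reports the main transcript was not tested.

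Reversed genes lowered at 48 h and raised at 72 h numbered 3. CFB, complement factor B, read 10.82 and 10.75 with GFP and 10.34 and 10.44 with GFP-ERG at 48 h, then 10.07 and 9.92 with GFP and 10.26 and 10.22 with GFP-ERG at 72 h. GFP-ERG was lower than GFP at 48 h and higher at 72 h. GFP arrays fell by 0.79 with time, while GFP-ERG arrays had no called change. Its difference was 0.64 (SE 0.10, adjusted p = 0.00158). TNFAIP2, induced by tumour necrosis factor, read 8.24 and 8.13 with GFP and 7.82 and 7.86 with GFP-ERG at 48 h, then 8.10 and 7.95 with GFP and 8.40 and 8.34 with GFP-ERG at 72 h. It rose by 0.53 under GFP-ERG and had no called change under GFP, a difference of 0.70 (SE 0.10, adjusted p = 0.000822). PTX3, a secreted pentraxin of innate immunity, read 8.11 and 8.07 with GFP and 7.81 and 7.81 with GFP-ERG at 48 h, then 7.87 and 7.84 with GFP and 8.12 and 8.16 with GFP-ERG at 72 h. The effect was -0.28 and then 0.28, a difference of 0.57 (SE 0.09, adjusted p = 0.00193).

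Arrays of the constructs were apart at both times in all 9 reversed genes, whose group SDs were at most 0.16. These genes were chosen by tests on the same arrays, so this separation adds no support. Each effect was small, between 0.25 and 0.56 log2 units in size. The number of reversed genes was 1 without the first GFP array at 48 h, 2 without the second GFP array at 72 h, 4 without either GFP-ERG array at 72 h and 5 without the first GFP-ERG array at 48 h. It was 4 with a background subtracted. CYP1A1, CD164, CFB, PTX3 and TNFAIP2 passed the difference in every alternative.

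**Figure D3:**
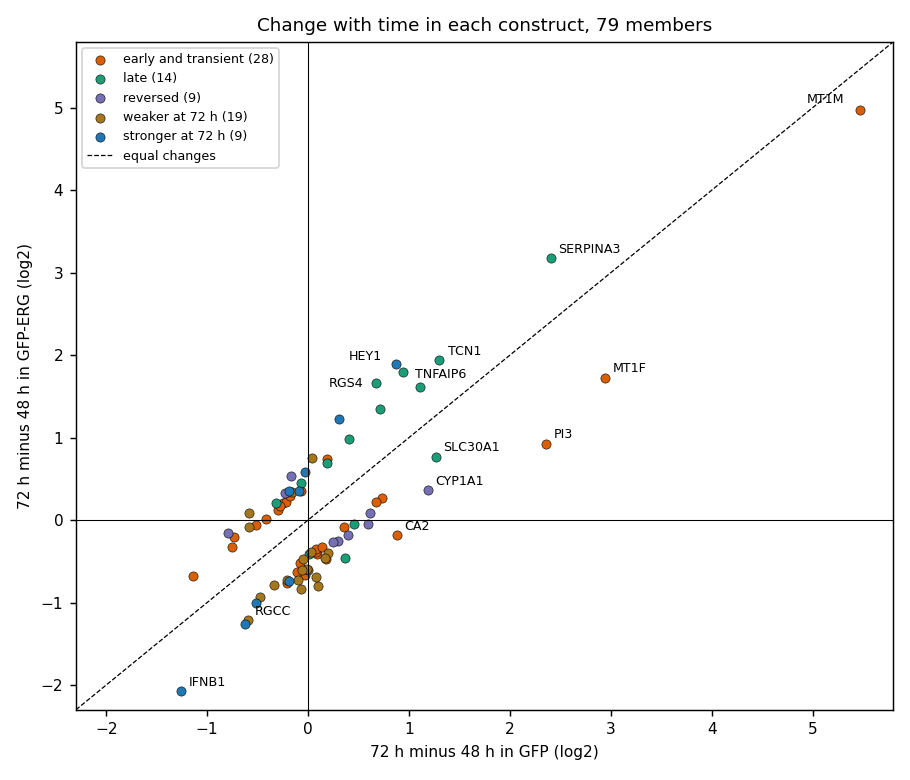
Change from 48 h to 72 h (log2) in GFP arrays on the x axis and in GFP-ERG arrays on the y axis for the 79 genes, coloured by class. The vertical distance from the dashed line of equal change is the difference between the effects, and PI3, MT1F and CA2 lie below that line.

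Genes raised at both times and less at 72 h numbered 15, with a median effect of 1.30 at 48 h and 0.70 at 72 h. Among them was the largest GFP-ERG effect of any gene at 48 h, 2.17 log2 units for SH2D3C. SH2D3C, an adaptor of integrin and receptor signalling, read 7.37 and 7.23 with GFP and 9.52 and 9.44 with GFP-ERG at 48 h, then 7.27 and 7.33 with GFP and 8.86 and 8.89 with GFP-ERG at 72 h. All GFP-ERG arrays stood far above GFP arrays, at 4.52-fold at 48 h and 2.98-fold at 72 h. The difference was -0.60 (SE 0.10, adjusted p = 0.00259) at the probe for NM_170600, while a dimmer probe for NM_005489 gave effects of 0.30 and 0.27 and a difference of -0.03. HBA1, an alpha globin, read 7.12 and 7.17 with GFP and 9.20 and 9.10 with GFP-ERG at 48 h, then 7.19 and 7.29 with GFP and 8.34 and 8.35 with GFP-ERG at 72 h. GFP arrays had no called change with time, GFP-ERG arrays came down toward them, and the difference was -0.91 (SE 0.09, adjusted p = 1.11e-05). The alpha globin genes are near-identical copies, so the probe may report both.

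CRP, the acute phase C-reactive protein, read 6.57 and 6.64 with GFP and 8.55 and 8.49 with GFP-ERG at 48 h, then 6.49 and 6.59 with GFP and 7.72 and 7.65 with GFP-ERG at 72 h. It was at the bottom of the scale with GFP, where the size of an effect is understated, and its difference was -0.77 (SE 0.09, adjusted p = 0.000131). HECW2, a ubiquitin ligase, read 7.40 and 7.32 with GFP and 9.34 and 9.09 with GFP-ERG at 48 h, then 7.45 and 7.43 with GFP and 8.59 and 8.47 with GFP-ERG at 72 h, a difference of -0.76 (SE 0.11, adjusted p = 0.000961). GFP-ERG arrays were the highest at 48 h in both genes, with the GFP arrays of both times close together.

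RASD1, a dexamethasone-inducible Ras-like GTPase, read 7.82 and 7.74 with GFP and 9.02 and 8.94 with GFP-ERG at 48 h, then 7.97 and 7.91 with GFP and 8.51 and 8.52 with GFP-ERG at 72 h, and its difference was -0.63 (SE 0.09, adjusted p = 0.0013). C1orf54 read 7.95 and 7.92 with GFP and 9.32 and 9.22 with GFP-ERG at 48 h, then 7.83 and 7.84 with GFP and 8.62 and 8.48 with GFP-ERG at 72 h, a difference of -0.62 (SE 0.10, adjusted p = 0.00161). Both genes stood clear of GFP at both times, with the GFP-ERG arrays at 72 h lying between the other GFP-ERG arrays and GFP. RGCC, a regulator of the cell cycle induced by complement, read 8.09 and 8.08 with GFP and 9.33 and 9.38 with GFP-ERG at 48 h, then 7.45 and 7.52 with GFP and 8.19 and 8.09 with GFP-ERG at 72 h. It fell by 0.60 under GFP as well and by 1.21 under GFP-ERG, a difference of -0.62 (SE 0.09, adjusted p = 0.00134). CXCL16, a membrane-bound chemokine, read 8.64 and 8.61 with GFP and 9.89 and 9.98 with GFP-ERG at 48 h, then 8.81 and 8.85 with GFP and 9.51 and 9.55 with GFP-ERG at 72 h. It rose by 0.20 under GFP and fell by 0.40 under GFP-ERG, a difference of -0.60 (SE 0.09, adjusted p = 0.00139).

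TMEM217, a membrane protein, averaged 7.21 in GFP and 8.42 in GFP-ERG arrays at 48 h, then 7.14 and 7.81 at 72 h. SOX8, a transcription factor of the SOX family, averaged 7.03 in GFP and 7.90 in GFP-ERG arrays at 48 h, then 7.02 and 7.30 at 72 h. ADCY4, an adenylate cyclase, averaged 6.87 in GFP and 7.63 in GFP-ERG arrays at 48 h, then 6.90 and 7.25 at 72 h. GPR162, an orphan receptor, averaged 6.98 in GFP and 8.02 in GFP-ERG arrays at 48 h, then 6.92 and 7.55 at 72 h at its brighter probe, while a dimmer one did not pass. These 4 genes had no called change under GFP. ADAMTS9, a secreted metalloprotease, averaged 6.80 in GFP and 7.63 in GFP-ERG arrays at 48 h, then 6.59 and 6.91 at 72 h. CEMIP, which takes part in hyaluronan breakdown, averaged 7.90 in GFP and 9.40 in GFP-ERG arrays at 48 h, then 7.43 and 8.47 at 72 h. RASIP1, a Ras-interacting protein required for endothelial tubes in mouse, averaged 8.60 in GFP and 10.05 in GFP-ERG arrays at 48 h, then 8.26 and 9.26 at 72 h. These 3 genes fell with time under GFP and further under GFP-ERG.

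All 15 genes fell from 48 h to 72 h under GFP-ERG, against 12.6% of all genes called lower there. They were chosen by a difference that equals the change under GFP-ERG minus that under GFP, so this fall adds no support. In 10 of the 15 no change was called under GFP, where a change was called for 23.0% of all genes. Of those 10, CRP, ADCY4, GPR162, SOX8, HBA1 and TMEM217 averaged 6.61 to 7.21 with GFP at 48 h. These levels lie below the median of all probes, 7.24, where a fall is understated. ADAMTS9, at 6.80, was nonetheless called lower with time under GFP. The ERG probe for NM_182918 also read lower at 72 h than at 48 h in GFP-ERG arrays, as given above. Whether the level of the construct had a part in these differences was not tested. The difference did not pass for FZD4, a Wnt receptor that averaged 9.35 in GFP and 10.16 in GFP-ERG arrays at 48 h, then 9.42 and 10.21 at 72 h. Its effects were 0.82 and 0.79, a difference of -0.03 (SE 0.10, adjusted p = 0.959).

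SH2D3C, HECW2 and RASIP1 were 3 of the 26 measured endothelial genes, a list in which 0 members had a higher and 3 a lower effect at 72 h (11.5%, against 0.476% of all genes). The list was drawn up with earlier results of these data known. Its median difference was -0.071, against -0.002 over all genes, and 9 of its members were raised at 48 h (4.86% of all genes) and 9 at 72 h (3.19% of all genes). Of the 26, 11 reached the median of all probes in some group. The RefSeq promoter windows of the 3 genes (GRCh38.p14, 250 bases before to 50 after the start) are shown because they belong to the called endothelial members and hold the ETS-like AGGAAG, which is in capitals together with its reverse complement CTTCCT. They are chr9:127778617-127778916, chr2:196592934-196593233 and chr19:48740561-48740860, all on the minus strand and printed 5′ to 3′ along the gene.
SH2D3C: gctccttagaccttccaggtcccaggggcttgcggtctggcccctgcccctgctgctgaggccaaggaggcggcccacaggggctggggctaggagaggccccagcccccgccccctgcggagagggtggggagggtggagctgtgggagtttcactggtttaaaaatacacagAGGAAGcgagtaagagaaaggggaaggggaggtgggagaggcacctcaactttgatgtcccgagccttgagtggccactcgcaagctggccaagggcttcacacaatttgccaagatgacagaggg
HECW2: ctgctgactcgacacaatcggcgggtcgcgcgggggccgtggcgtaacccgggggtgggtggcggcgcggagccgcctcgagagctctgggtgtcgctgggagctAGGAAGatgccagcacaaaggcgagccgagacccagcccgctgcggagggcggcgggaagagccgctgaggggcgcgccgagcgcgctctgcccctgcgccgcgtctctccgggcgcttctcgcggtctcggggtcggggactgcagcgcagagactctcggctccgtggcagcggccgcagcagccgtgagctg
RASIP1: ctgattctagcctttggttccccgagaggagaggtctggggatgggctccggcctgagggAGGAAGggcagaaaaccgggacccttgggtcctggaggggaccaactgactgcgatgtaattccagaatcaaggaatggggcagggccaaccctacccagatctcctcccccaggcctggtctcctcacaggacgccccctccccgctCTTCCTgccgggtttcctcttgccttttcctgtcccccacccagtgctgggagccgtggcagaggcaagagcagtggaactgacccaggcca
For SH2D3C, 1 of 5 annotated windows held AGGAAG and is the one printed. AGGAAG on either strand was found in 6 of 13 weaker genes with a window, 46.2%, against 40.4% of 13433 genes with a window. Of these 13, 10 were raised by GFP-ERG like the genes printed, and 4 of the 10 held AGGAAG. That share, 40.0%, was close to the share of all genes. The longer CCGGAAG, a different run of letters that shares GGAAG with it, was found in 0 of these 13 and in 17.2% of all genes. A match is no more than these letters in the window.

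Genes lowered at both times and less at 72 h numbered 4, with a median effect of -0.95 at 48 h and -0.34 at 72 h. CXCL8, the neutrophil chemokine interleukin-8, read 12.09 and 11.94 with GFP and 10.89 and 10.89 with GFP-ERG at 48 h, then 12.07 and 12.02 with GFP and 11.62 and 11.66 with GFP-ERG at 72 h. GFP arrays of both times lay together, GFP-ERG arrays lay below them, and those of 72 h stood in between. Its effect was -1.12 at 48 h and -0.41 at 72 h, a difference of 0.71 (SE 0.09, adjusted p = 0.000409). Its RefSeq promoter window (GRCh38.p14, chr4:73740319-73740618, plus strand) is shown because it held both AGGAAG and the AP-1-like TGANTCA, here TGACTCA, each in capitals.
CXCL8: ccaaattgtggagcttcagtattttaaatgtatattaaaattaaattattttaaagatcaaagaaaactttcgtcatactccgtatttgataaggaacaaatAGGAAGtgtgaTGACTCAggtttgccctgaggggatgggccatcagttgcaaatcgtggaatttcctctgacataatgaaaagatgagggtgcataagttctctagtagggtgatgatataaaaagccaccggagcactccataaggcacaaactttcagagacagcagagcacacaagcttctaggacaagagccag
TGANTCA was found in 5 of 18 early and transient genes with a window, 27.8%, and in 8 of all 57 members with one, 14.0%, against 8.16% of all genes. On both strands the 7 letters match at the same place. For each motif a gene counted if any of its windows matched, so genes with more windows had more places to match. The early genes with TGANTCA were CREB5 (3 windows), GABPB1 (1), RCAN1 (6), SASH1 (4) and SH3D19 (3). No test of these shares was made.

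NOCT, a deadenylase-related protein with a daily rhythm, read 11.47 and 11.21 with GFP and 10.18 and 10.03 with GFP-ERG at 48 h, then 10.63 and 10.89 with GFP and 10.16 and 10.24 with GFP-ERG at 72 h. GFP arrays fell with time toward the GFP-ERG level, which had no called change, and the difference was 0.67 (SE 0.12, adjusted p = 0.0122). H1-2, a linker histone, averaged 12.13 in GFP and 11.38 in GFP-ERG arrays at 48 h, then 11.97 and 11.71 at 72 h. SLC7A11, the cystine transporter that supplies glutathione synthesis, averaged 8.60 in GFP and 7.82 in GFP-ERG arrays at 48 h, then 8.01 and 7.73 at 72 h. SLC7A11 fell by 0.59 under GFP with no called change under GFP-ERG.

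Genes raised at both times and more at 72 h numbered 5, with a median effect of 0.37 at 48 h and 1.17 at 72 h. HEY1, a transcriptional repressor downstream of Notch and BMP signals, read 7.67 and 7.72 with GFP and 8.07 and 8.06 with GFP-ERG at 48 h, then 8.60 and 8.54 with GFP and 9.96 and 9.95 with GFP-ERG at 72 h. GFP-ERG was above GFP without overlap at both times, and the gap was wide at 72 h. Its effect was 0.37 at 48 h and 1.39 at 72 h, or 1.29-fold and 2.61-fold, a difference of 1.02 (SE 0.09, adjusted p = 1.68e-06). SHISA2, an inhibitor of Wnt and FGF receptor maturation in frog embryos, read 6.97 and 6.88 with GFP and 7.50 and 7.49 with GFP-ERG at 48 h, then 7.23 and 7.24 with GFP and 8.69 and 8.76 with GFP-ERG at 72 h, a difference of 0.92 (SE 0.09, adjusted p = 7.73e-06). Both genes also rose with time under GFP.

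APOD, a lipid-binding lipocalin, read 7.41 and 7.44 with GFP and 7.65 and 7.63 with GFP-ERG at 48 h, then 7.43 and 7.35 with GFP and 8.26 and 8.17 with GFP-ERG at 72 h. GFP arrays of both times lay together, and GFP-ERG arrays were higher at 72 h than at 48 h, a difference of 0.61 (SE 0.09, adjusted p = 0.00133). MGP, matrix Gla protein, an inhibitor of calcification and of BMP signals, averaged 6.60 in GFP and 7.24 in GFP-ERG arrays at 48 h, then 6.42 and 7.59 at 72 h. MRAP2, an accessory protein of melanocortin receptors, averaged 7.07 in GFP and 7.34 in GFP-ERG arrays at 48 h, then 6.98 and 7.70 at 72 h. APOD, MGP and MRAP2 had no called change with time under GFP and rose under GFP-ERG.

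Genes lowered at both times and more at 72 h numbered 4, with a median effect of -1.01 at 48 h and -1.66 at 72 h. IFNB1, interferon beta, read 12.59 and 12.21 with GFP and 11.77 and 11.36 with GFP-ERG at 48 h, then 11.05 and 11.23 with GFP and 9.56 and 9.41 with GFP-ERG at 72 h. It fell under both constructs and its lowest arrays were those with GFP-ERG at 72 h, a difference of -0.82 (SE 0.16, adjusted p = 0.0202). Its arrays spread more than those of the other members, with an SD of up to 0.29. STK32B, a protein kinase, averaged 12.80 in GFP and 11.88 in GFP-ERG arrays at 48 h, then 12.18 and 10.62 at 72 h. TMEM150A, which takes part in phosphoinositide synthesis at the plasma membrane, averaged 10.47 in GFP and 9.36 in GFP-ERG arrays at 48 h, then 10.28 and 8.62 at 72 h. NCMAP, a myelin-associated membrane protein, averaged 13.73 in GFP and 12.37 in GFP-ERG arrays at 48 h, then 13.22 and 11.37 at 72 h. Of these 4, TMEM150A alone had no called change with time under GFP, while the other 3 fell there too.

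The genes with the largest mean effect over both times were also followed, whether or not they were among the 79. The mean effect and the difference are separate contrasts of the same 8 arrays, so genes were taken by the first and described by the second. Of 17 genes raised by a mean of at least 1 log2 unit, 11 had a smaller effect at 72 h, and the median effect went from 1.30 to 1.09. For 8 of these 17 the difference was called as smaller, and for 1, SHISA2, as larger. Of 28 genes lowered by at least 1 log2 unit, 24 had a larger effect at 72 h, and the median effect went from -1.26 to -1.51. For 4 of the 28 the difference was called as larger, and for 0 as smaller.

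All 28 of the strongly lowered genes also read lower at 72 h than at 48 h under GFP, a change called for 27. Over all genes 11.2% were called lower there. Of the 17 strongly raised genes, 10 read lower at 72 h under GFP, a change called for 3. The median change of the 28 lowered genes was -0.62 under GFP and -0.80 under GFP-ERG. Their levels with GFP at 48 h were high, between 10.09 and 13.73. Among genes with a mean effect of 0.5 to 1 log2 unit, 55 of 78 raised genes and 53 of 116 lowered genes had a smaller effect at 72 h. At a mean effect of 0.25 to 0.5 it was 223 of 337 raised genes and 126 of 239 lowered genes. No test of these shares was made.

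**Figure D4:**
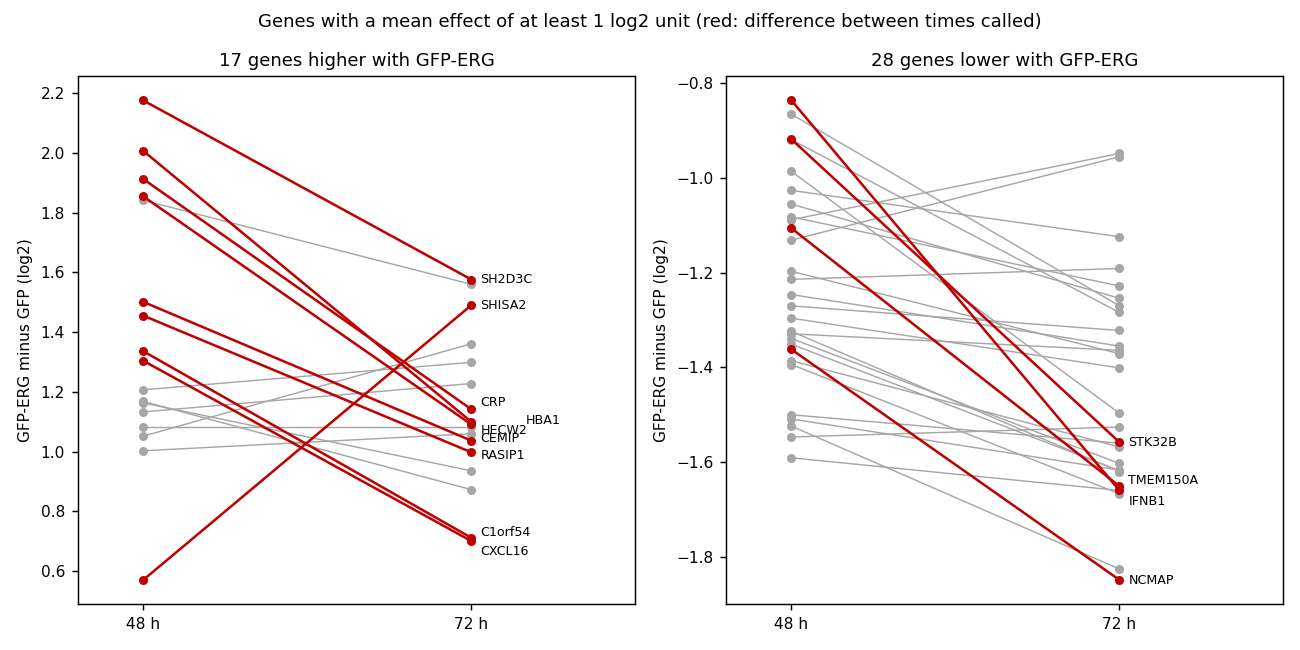
GFP-ERG minus GFP (log2) at 48 h and at 72 h for the 17 genes raised (left) and the 28 lowered (right) by a mean of at least 1 log2 unit, with 1 line per gene and genes whose difference was called in red. Most raised genes lie lower at 72 h than at 48 h, and most lowered genes lie further from 0 at 72 h. The y axes do not start at 0 and differ between the panels.

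In the other gene lists, counts are to be read against 0.205% of all genes with a higher and 0.271% with a lower effect at 72 h. Inflammatory genes had 3 of 33 members with a higher effect at 72 h (TNFAIP6, CXCL8 and TNFAIP2) and 1 with a lower one (CRP), and a median difference of 0.095. ATF4 and unfolded protein response genes had 3 of 33 with a higher effect (SLC7A11, PSPH and CHAC1) and 0 with a lower one. All 3 were lowered by GFP-ERG at 48 h, and all 3 lost their calls with a background subtracted. The median difference of the list was 0.052. The metallothionein list had 3 of 12 with a lower effect (MT1F, MT1M and SLC30A1), a median difference of -0.039, and 7 members that rose with time under each construct, against 11.8% of all genes under GFP and 13.1% under GFP-ERG. TGF-beta and BMP response genes had 2 of 26 with a higher effect, HEY1 and MGP, and a median difference of -0.042. HEY1 was also the 1 of 22 Notch pathway genes called, where the median was 0.039. With a background subtracted MT1M, SLC30A1 and MGP lost their calls too, while the named inflammatory genes, MT1F and HEY1 kept theirs.

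Single members were called among 28 basal and squamous epithelial genes (S100A9), 34 interferon response genes (IFNB1), 20 heat shock genes (CRYAB), 26 p53 target genes (RRM2B) and 16 histone genes (H1-2). Of the 34 interferon response genes, 20 fell with time under GFP (11.2% of all genes did) and 19 under GFP-ERG (12.6% of all genes). The other lists had no call, and with 0.476% of all genes called a count of 0 in a short list is not a result about it. Of 37 mitosis genes, 33 rose with time under each construct, against 11.8% of all genes under GFP and 13.1% under GFP-ERG. None was called for the difference among these 37. None was called among 29 genes of extracellular proteolysis, 33 mesenchymal, 30 epithelial junction and 17 luminal and androgen receptor genes. None was called among 28 AP-1 and MAPK feedback genes, 34 of DNA replication, 27 of cholesterol and fatty acid synthesis, 31 of hypoxia and glycolysis, 35 of Wnt signalling or 27 ETS factors. None was called among 26 tissue-restricted and 10 housekeeping genes, or among the 11 fibroblast, 12 leukocyte and 13 neuroendocrine markers. The 17 lists with no call in limma's test held 424 genes, of which 39 (9.2%) had an unadjusted p under 0.05, against 9.57% of all genes, and list medians of -0.113 to 0.079. PLAU, the urokinase protease, had a difference of -0.03 (SE 0.09, adjusted p = 0.962), HDAC1, a histone deacetylase, of 0.01 (SE 0.09, adjusted p = 0.98), and VIM, the mesenchymal intermediate filament vimentin, of 0.14 (SE 0.10, adjusted p = 0.702).

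At the threshold, the genes just inside were SH3D19 (adjusted p = 0.0463), SLC7A11 (adjusted p = 0.0485) and CHAC1 (adjusted p = 0.0487). The genes just outside were MEX3B, MTMR6 and H4C14, with differences of -0.47, -0.44 and 0.44 and an adjusted p of 0.0513 each. MEX3B averaged 8.40 in GFP and 8.60 in GFP-ERG arrays at 48 h, then 8.44 and 8.17 at 72 h. MTMR6 averaged 9.11 in GFP and 9.41 in GFP-ERG arrays at 48 h, then 9.37 and 9.23 at 72 h. H4C14 averaged 10.49 in GFP and 10.09 in GFP-ERG arrays at 48 h, then 9.89 and 9.94 at 72 h. Their sizes are those of the members just inside.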

How the data were processed

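Total RNA was biotin-labelled and, per the labels' protocols, measured on 1-colour Illumina bead arrays. The deposited values were taken as log2 signals from their range (5.95 to 15.1). The authors' software, background correction and normalization are not stated in the labels used here. Arrays had nearly equal distributions (medians 7.23 to 7.24), so the values were used as deposited, with no floor. They show no sign of a subtracted background, so folds of dim probes are understated.

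Of 20589 probes, 18332 had 1 gene symbol in the platform annotation, 0 had several and 2257 had none. Symbols were looked up through the RefSeq gene table (GRCh38.p14). The brightest probe by mean signal stood for each gene, which gave 16591 genes, of which 1542 had more than 1 probe. All 8 arrays entered 1 fit of 4 group means in limma 3.58.1 (R 4.3.3; lmFit, contrasts.fit and eBayes), 2-sided, with Benjamini-Hochberg adjusted p-values over all genes and a threshold of 0.05. The fit was tested on simulated data. Tables and plots were made with Python 3.11.15, pandas 2.3.3 and matplotlib 3.10.9.

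The comparisons, classes and 28 gene lists were chosen with earlier results of these data known. The rule for named genes was the 5 early and the 5 late genes with the largest difference in each direction, 4 reversed genes in each direction, 3 weaker and 3 stronger ones, up to 4 called members per list, 3 genes on either side of the threshold, and ERG, FZD4, HDAC1, PLAU and VIM. The remaining members were named after their values were seen, so that every member has its 4 group means. Alternatives were a trended variance, a dim filter, the mean of probes, another normalization, a subtracted background, array number as a block and each array left out.

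Promoter windows were matched by symbol, and 57 of 79 members had one.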

Additional observations from a re-analysis of the deposited data

Results flagged for a closer look

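The 79 genes were noted here because the GFP-ERG effect at 72 h differed from that at 48 h by limma's test of the difference itself. Each value is the effect at 72 h minus that at 48 h, in log2 units.

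Of the early genes raised at 48 h, the differences were -1.43 for PI3, -1.22 for MT1F, -1.07 for CA2, -0.65 for LGALSL, -0.63 for IL7R, -0.55 for RCAN1, -0.52 for PHACTR2, -0.50 for MT1M, -0.50 for RPS6KA5, -0.47 for KCNK12, -0.47 for SLC38A6, -0.46 for SASH1, -0.46 for RRM2B, -0.45 for CYBRD1, -0.44 for TGFA, -0.43 for SH3D19. Among early genes lowered at 48 h they were 0.56 for UTP14A, 0.52 for CREB5, 0.48 for SLC35F6, 0.47 for CITED4, 0.46 for HOXB9, 0.45 for GABPB1, 0.44 for PSPH, 0.44 for PPP3CC, 0.43 for HLF, 0.42 for CHAC1, 0.42 for BNIP1, 0.42 for VPS25.

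Late genes raised at 72 h had differences of 0.98 for RGS4, 0.85 for TNFAIP6, 0.76 for SERPINA3, 0.65 for TCN1, 0.63 for CRYAB, 0.58 for IGFBP5, 0.53 for S100A9, 0.52 for PYGB, 0.50 for S100P, 0.50 for TPM1. Those of late lowered genes were -0.82 for CYP24A1, -0.50 for FAM200A, -0.49 for SLC30A1, -0.41 for PI4K2B. Genes raised at 48 h and lowered at 72 h differed by -0.83 for CYP1A1, -0.64 for RPL27A, -0.58 for CD164, -0.55 for ACSL4, -0.52 for RIN2, -0.52 for YAP1. Genes lowered at 48 h and raised at 72 h differed by 0.70 for TNFAIP2, 0.64 for CFB, 0.57 for PTX3.

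Raised genes with a weaker effect at 72 h differed by -0.91 for HBA1, -0.77 for CRP, -0.76 for HECW2, -0.63 for RASD1, -0.62 for C1orf54, -0.62 for RGCC, -0.60 for CXCL16, -0.60 for SH2D3C, -0.59 for SOX8, -0.54 for TMEM217, -0.52 for ADAMTS9, -0.46 for CEMIP, -0.46 for RASIP1, -0.41 for ADCY4, -0.41 for GPR162. Lowered genes with a weaker effect at 72 h differed by 0.71 for CXCL8, 0.67 for NOCT, 0.50 for H1-2, 0.50 for SLC7A11. For raised genes with a stronger effect at 72 h the values were 1.02 for HEY1, 0.92 for SHISA2, 0.61 for APOD, 0.53 for MGP, 0.45 for MRAP2. For lowered genes with a stronger effect at 72 h they were -0.82 for IFNB1, -0.64 for STK32B, -0.55 for TMEM150A, -0.49 for NCMAP.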

How the results depend on the processing

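Subtracting a background (offset 50) left 25 genes with a called difference, 4 early and transient, 6 late and 4 reversed. Leaving out each array in turn gave 32 to 144 called differences, 4 to 60 early and transient genes, 6 to 34 late genes and 1 to 13 reversed genes. It gave 798 to 1399 calls for the effect at 48 h, 532 to 1228 at 72 h, 2545 to 4101 for time under GFP and 3152 to 4238 for time under GFP-ERG. With 1 array left in a group, that array was taken to vary like the other groups. The numbers of called differences under the other settings were 88 with a trended, robust variance, 78 with a filter on dim genes, 60 when all probes of a gene were averaged and 76 after another quantile normalization. Asking for an unadjusted p of at least 0.05 at the other time, chosen after seeing the data, gave 22 early and 10 late genes. None of the 79 called differences changed sign under these settings, which reuse the arrays on which the genes were chosen. The array numbers are shared between groups, but deviations of array 1 from its group mean correlated at only -0.057 to 0.078 between groups, so they were not taken as pairs. With array number as a replicate block, 65 differences were called, with 21 early, 11 late and 9 reversed genes. The small number of arrays and signals near the bottom of the scale limit the precision.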
